A study of Mus musculus with 6 samples.

Results

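A set of 45 interferon-stimulated effector genes was followed in RNA from mouse palatal shelves at E14.5, when the shelves normally lift and fuse into the roof of the mouth. The set holds Trim, Sp100, Mx and Schlafen genes and other effectors outside the Isg15, Oas, Ifit, GTPase, class I and PARP families. Its members were named by symbol with earlier results of these libraries in view, so the KO and control values below describe them and are not independent evidence of a direction. All 45 symbols matched 1 Ensembl ID each among the 55631 IDs of the table. There were 3 control libraries, from p130Casfl/fl embryos with no Cre in the label, and 3 KO libraries, from p130Casfl/fl embryos that also carried CAG-Cre. Both groups therefore share loxP-flanked alleles of Bcar1, which encodes p130Cas, a scaffold protein at integrin adhesions. The CAG promoter is broadly active, and since only the KO embryos carried Cre, the transgene and any loss of p130Cas cannot be told apart in this design. The labels give no litters, so it is not known whether embryos shared a litter within or across groups. The spread between libraries may also be technical in part.

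Interferons are cytokines that cells release on sensing foreign nucleic acid. They act through cell-surface receptors and Jak kinases on a complex of transcription factors that includes Stat2 and Irf9 and binds the interferon-stimulated response element in promoters. The genes switched on in this way include enzymes that block viral replication, Trim ubiquitin ligases, proteins of nuclear bodies and regulators that feed back on the pathway. In bulk tissue a change in the number of cells of one type and a change in RNA per cell cannot be told apart.

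All values are FPKM, fragments scaled for gene length and library size. Each library had between 21500 and 21869 IDs above 0, and no value lay between 0 and the smallest listed one, which was 0.1001 to 0.118 FPKM by library, so a gene listed at 0 may still be present below that level. Read counts, and so the depth behind each value, are unknown. Bcar1, the gene for p130Cas, stood at 1.80, 1.97 and 2.09 FPKM in control and 1.69, 1.69 and 1.31 FPKM in KO replicates 1 to 3, a whole-gene value that can include exons outside the loxP sites. The log2 difference was -0.21 ± 0.11 (SE), and these RNA values do not show how far p130Cas was lost. Xist and Ddx3y placed KO replicate 2 as female and the other 5 libraries as male. Palatal mesenchyme markers were present throughout: all 14 listed genes, among them Shox2, Msx1 and Osr2, were tested, and their summed FPKM ran from 783 to 808 in control and from 732 to 903 in KO libraries.

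Promoter sequences were read from RefSeq on GRCm38.p6, as windows from 250 bases before to 50 bases after each listed start. Of the 45 genes, 39 had at least 1 window. The core of the interferon-stimulated response element was searched as GAAA, any 2 bases and GAAA on both strands, where matches may overlap each other. It was present in 13 of the 39 genes (33.3%), beside 1079 of 27025 genes in the whole promoter table (3.99%), and in 14 of the members' 51 windows (27.5%), beside 3.44% of all windows. The gamma-activated site, searched as TTCNNNGAA, which reads the same on both strands, was present in 2 of the 39 genes (5.13%), Ifi35 and Isg20, beside 9.55% of all genes. Split by the expression test below, the response-element core was present in 2 of 8 members that passed, 9 of 24 that were tested and did not pass, and 2 of 7 under the filter. A match describes these letters only. Sequence that differed from the core by any fixed base or in spacing was not counted, so no match does not mean that no response element is present. The promoters of Rsad2 and Trim30a are shown because they are the 2 genes that both held the response-element core and passed the expression test below. Those of Xaf1 and Ifi44 are shown because they passed that test with no match in this window. Capitals mark the match, written 5′ to 3′ on the strand of the gene, so that the core on the opposite strand appears as TTTC, any 2 bases and TTTC.
Rsad2, chr12:26456403-26456702, minus strand: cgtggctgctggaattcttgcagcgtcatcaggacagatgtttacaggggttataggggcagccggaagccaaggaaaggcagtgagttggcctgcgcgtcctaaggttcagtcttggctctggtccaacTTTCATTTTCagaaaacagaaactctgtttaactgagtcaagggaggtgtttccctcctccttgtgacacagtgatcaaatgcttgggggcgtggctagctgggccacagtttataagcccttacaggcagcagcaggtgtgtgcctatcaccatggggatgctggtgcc
Trim30a, chr7:104465144-104465443, minus strand: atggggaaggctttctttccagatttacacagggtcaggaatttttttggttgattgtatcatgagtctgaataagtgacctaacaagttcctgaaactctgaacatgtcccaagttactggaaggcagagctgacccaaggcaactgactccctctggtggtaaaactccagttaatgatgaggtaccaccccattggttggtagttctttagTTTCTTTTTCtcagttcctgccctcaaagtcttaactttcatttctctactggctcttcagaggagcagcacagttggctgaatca
Xaf1, chr11:72301379-72301678, plus strand: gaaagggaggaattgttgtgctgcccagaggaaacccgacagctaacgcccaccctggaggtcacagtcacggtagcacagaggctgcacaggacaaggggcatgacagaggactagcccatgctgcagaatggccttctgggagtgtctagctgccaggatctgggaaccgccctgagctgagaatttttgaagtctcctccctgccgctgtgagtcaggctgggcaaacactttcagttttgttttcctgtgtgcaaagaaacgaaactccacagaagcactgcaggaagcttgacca
Ifi44, chr3:151749861-151750160, minus strand: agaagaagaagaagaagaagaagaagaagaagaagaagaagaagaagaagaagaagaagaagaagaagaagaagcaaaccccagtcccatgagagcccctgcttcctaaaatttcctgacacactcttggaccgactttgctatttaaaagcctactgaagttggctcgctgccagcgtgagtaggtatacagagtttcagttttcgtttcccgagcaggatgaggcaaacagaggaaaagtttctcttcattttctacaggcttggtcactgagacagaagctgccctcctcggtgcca

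Among the Trim genes, Trim34a, Trim5, Trim12c and Trim30a, lie within 220.7 kb on chromosome 7, between 104244457 and 104465193, and each held the core close to its start. The match began 11 bases after the start in Trim34a, and 49, 29 and 36 bases before it in Trim5, Trim12c and Trim30a. The windows of Trim5 and Trim12c were identical at 48 of 50 positions, and that of Trim30a matched Trim5 at 27 of 50 at the same offset. Their matches are shown with 20 bases on each side, followed by Cxcl10, with a match 213 bases before its start, and Ogfr, with a match 32 bases after it in a window that ends 9 bases further on.
Trim34a, chr7:104244447-104244496, plus strand: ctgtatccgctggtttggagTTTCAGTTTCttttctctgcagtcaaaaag
Trim5, chr7:104288126-104288175, minus strand: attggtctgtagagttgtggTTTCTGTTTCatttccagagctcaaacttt
Trim12c, chr7:104353349-104353398, minus strand: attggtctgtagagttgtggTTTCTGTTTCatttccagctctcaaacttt
Trim30a, chr7:104465200-104465249, minus strand: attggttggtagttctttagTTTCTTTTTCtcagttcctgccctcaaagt
Cxcl10, chr5:92349073-92349122, minus strand: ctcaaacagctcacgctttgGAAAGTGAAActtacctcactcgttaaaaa
Ogfr, chr2:180589418-180589456, plus strand: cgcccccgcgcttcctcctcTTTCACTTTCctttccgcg

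**Figure D1:**
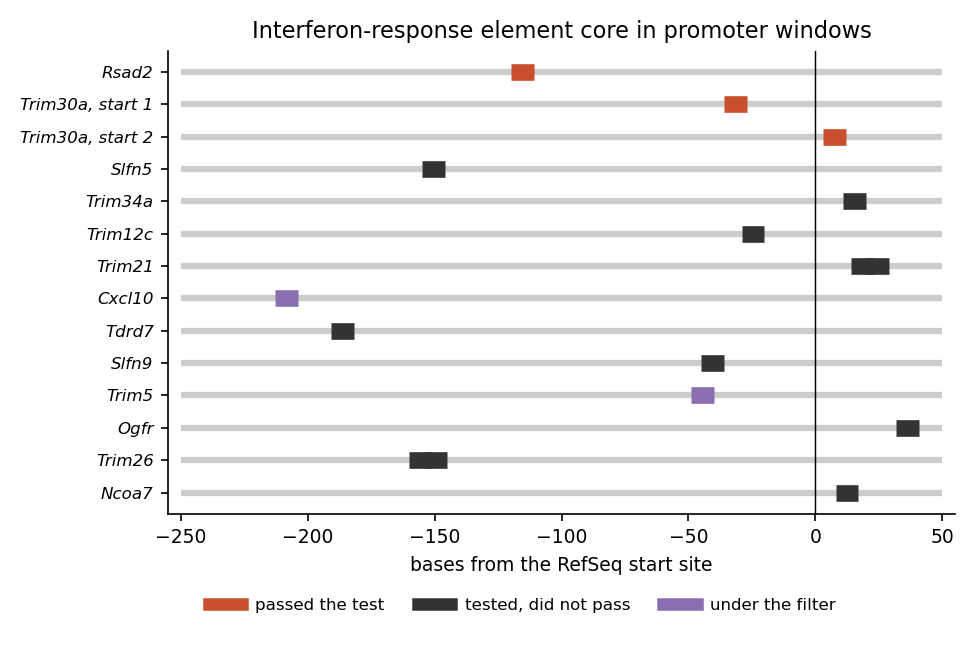
Position of the response-element core (coloured blocks) along promoter windows (grey bars) of the 13 genes that held it, in bases from the RefSeq start site; Trim30a has 2 windows, for 2 starts. Genes are ordered by log2 fold change, KO minus control, from the highest, and matches lay from 213 bases before to 41 bases after a start.

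The KO shelves carried higher levels of 9 effector genes. Rtp4, Rsad2, Xaf1, Ifi44, Rnf213, Sp100, Trim30a, Ifi35 and Samd9l passed at an adjusted p under 0.05 in limma fitted over all genes, and 0 members passed in the other direction. Tests covered the 14714 genes whose mean over the 6 libraries reached 1 FPKM. Of these, 48 passed as higher in KO, or 0.326%, and 1 as lower, or 0.0068%. Among the 45 effector genes 35 were tested, 26 of them did not pass, and 10 had a mean under 1 FPKM and were not tested. Because the choice of members drew on the same contrast, nothing is read from this share. The filter on mean level adds to that: 8 of the 35 had a control mean under 1 FPKM and entered the test only through their KO level, 6 of the 9 that passed among them. The median log2 fold change on the log2(FPKM + 1) scale was 0.49 over the 35 tested members, beside -0.02 over all tested genes, and 0.43 over all 45 with no filter.

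**Figure D2:**
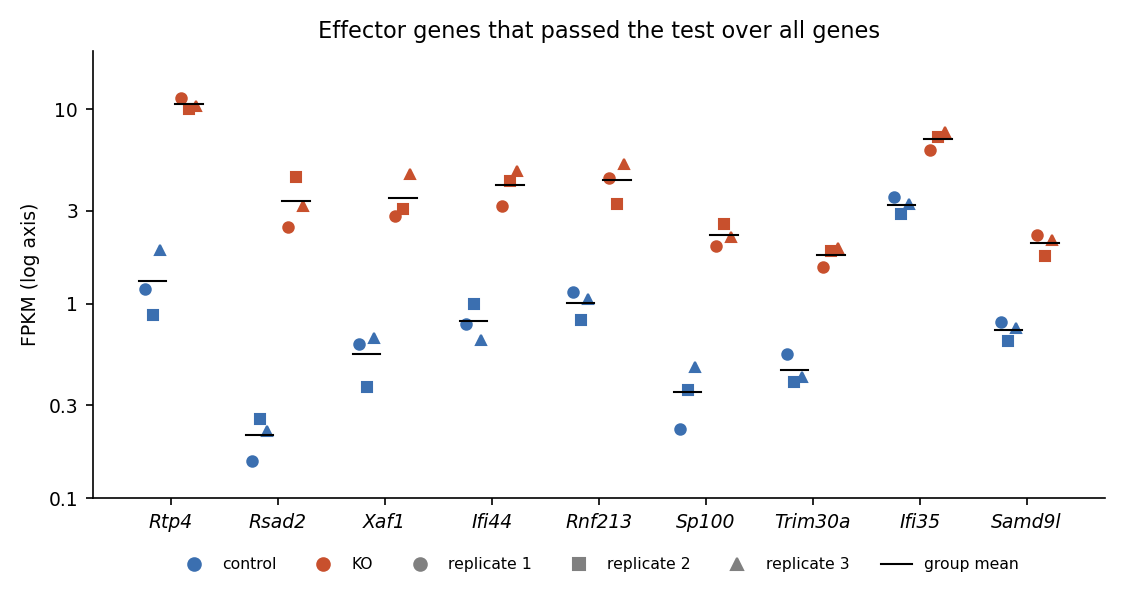
FPKM (log axis) of the 9 effector genes that passed, in 3 control (blue) and 3 KO (red) libraries; symbols mark the replicate and bars the group mean. Every KO value lies above every control value of the same gene, from Rtp4 at 10.1 to 11.4 FPKM to Trim30a at 1.54 to 1.93 FPKM in KO.

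The group set up for effectors of RNA, nucleotides and replication held the most members, 12, of which 3 passed, 9 did not, and 0 were under the filter. This group is broad and also takes in the ubiquitin ligase Rnf213. Rsad2 (ENSMUSG00000020641), or viperin, makes a nucleotide analogue that ends viral RNA chains. In replicate order it stood at 0.156, 0.256 and 0.221 FPKM in control and 2.49, 4.50 and 3.17 FPKM in KO libraries. The KO mean was 16.1 times the control mean, the highest ratio of the set, and the log2 difference was 1.83 ± 0.17 (SE; limma, adjusted p = 0.00384). The groups did not overlap, and the lowest KO library was 9.75 times the highest control library. Rnf213, a very large ubiquitin ligase with an ATPase ring, stood at 1.15, 0.826 and 1.06 FPKM in control and 4.41, 3.25 and 5.25 FPKM in KO libraries, a log2 difference of 1.38 ± 0.15 (SE; limma, adjusted p = 0.0102). Samd9l, which restrains translation, stood at 0.810, 0.642 and 0.752 FPKM in control and 2.26, 1.76 and 2.12 FPKM in KO libraries, a log2 difference of 0.81 ± 0.11 (SE; limma, adjusted p = 0.0328). Rnf213 and Samd9l were both lowest in KO replicate 2, where Rsad2 was highest.

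The neighbour of Rsad2 had a smaller difference. Cmpk2, a mitochondrial nucleotide kinase, lies 12.8 kb from Rsad2 on chromosome 12, and the pair spans 37.1 kb. It stood at 1.88, 1.53 and 1.47 FPKM in control and 2.14, 2.75 and 2.75 FPKM in KO libraries, a ratio of means of 1.57, and did not pass.

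Schlafen genes restrict translation and replication in infected cells, and 2 of them are members. Slfn5 stood at 0.918, 0.834 and 0.795 FPKM in control and 1.95, 1.76 and 2.14 FPKM in KO libraries. These groups did not overlap, and the log2 difference of 0.67 ± 0.10 (SE; limma, adjusted p = 0.0631) fell just outside the threshold. Slfn9, 13.6 kb away on chromosome 11, averaged 7.55 ± 0.927 FPKM in controls and 10.2 ± 1.04 FPKM in the KO group (SD, n = 3 each), with no overlap, and did not pass. Both promoter windows held the response-element core. Reads of near-identical Schlafen genes can be split between copies, so their levels are uncertain. Of the relatives outside the set, looked up after the values were seen, Slfn8 had means of 0.231 and 1.497 FPKM and Slfn2, which passed, of 1.68 and 4.25 FPKM in control and KO libraries. Slfn3 had means of 1.18 and 1.43 FPKM, with overlapping libraries, and did not pass.

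Of the other genes in this group, Helz2, a helicase co-activator, stood at 1.73 ± 0.217 FPKM in controls and 3.26 ± 0.671 FPKM in the KO group (SD, n = 3 each). Isg20, an exonuclease that degrades single-stranded RNA, was at 1.25, 1.55 and 1.60 FPKM in control and 2.38, 3.90 and 2.10 FPKM in KO libraries. Tdrd7, a Tudor protein of RNA granules, was at 2.84 ± 0.106 and 4.39 ± 0.252 FPKM. The groups did not overlap for these 3 genes, and none of the 3 passed. Znfx1, a helicase that senses double-stranded RNA, was at 4.07 ± 0.268 and 4.66 ± 0.191 FPKM. It overlaps Zfas1 on the opposite strand, at a mean of 35.8 FPKM in control libraries, and without a stated strand setting their reads cannot be told apart. The control and KO values overlapped for Mov10, a helicase that restrains retroelements, at 16.97 ± 1.34 and 18.5 ± 0.403 FPKM, and for Pnpt1, a mitochondrial RNA exonuclease, at 9.18 ± 0.604 and 10.03 ± 1.56 FPKM.

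Regulators of signalling and cell death made up 8 members, with 3 that passed, 4 that did not and 1 under the filter. Rtp4 (ENSMUSG00000033355), a chaperone of membrane receptors that also curbs viral replication, stood at 1.19, 0.873 and 1.88 FPKM in control and at 11.4, 10.1 and 10.4 FPKM in KO libraries. Its log2 difference of 2.35 ± 0.16 (SE; limma, adjusted p = 0.00100) was the highest of the set on that scale, and its KO libraries differed by 1.13 times at most. Masp1 overlaps Rtp4 on the opposite strand and had means of 3.73 and 3.94 FPKM in the control and KO groups. Xaf1, which promotes apoptosis by binding an apoptosis inhibitor, stood at 0.624, 0.374 and 0.664 FPKM in control and 2.81, 3.09 and 4.63 FPKM in KO libraries, a log2 difference of 1.52 ± 0.17 (SE; limma, adjusted p = 0.00954). Ifi35 stood at 3.55, 2.89 and 3.25 FPKM in control and 6.18, 7.19 and 7.67 FPKM in KO libraries, a log2 difference of 0.92 ± 0.10 (SE; limma, adjusted p = 0.0114).

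Nmi, which binds Ifi35, stood at 2.04, 3.18 and 2.54 FPKM in control and 5.01, 4.83 and 5.30 FPKM in KO libraries. The ratio of means was 1.95 for Nmi and 2.17 for its partner Ifi35, but Nmi did not pass (limma, adjusted p = 0.0875), with controls that ranged more widely. Mlkl, the pore former of necroptosis, was at 0.183, 0 and 0.219 FPKM in control and 0.745, 0.421 and 0.429 FPKM in KO libraries and was not tested. It lies 372.3 kb from Bcar1 on chromosome 8, so it is the one member near the targeted gene. Ogfr, the opioid growth factor receptor and the most abundant member in controls, was at 43.4 ± 1.22 FPKM in controls and 47.04 ± 1.43 FPKM in the KO group (SD, n = 3 each), without overlap, and did not pass. Nub1, which limits ubiquitin-like modifiers, at 14.4 ± 0.922 and 14.7 ± 0.418 FPKM, and Trafd1, a feedback inhibitor of innate signalling, at 27.9 ± 1.77 and 27.99 ± 0.491 FPKM, overlapped between groups.

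All 8 Trim genes had KO values above their control values in all libraries, though 1 passed, 5 did not and 2 were under the filter. Among all 45 effector genes 34 had this order, beside 3.56% of all genes above 0 in any library. These were the 9 that passed and 16 of the 26 tested members that did not, beside 3.27% of tested genes, and 9 of the 10 under the filter, beside 3.97% of such genes. The reverse order was seen in 0 members and in 5.79% of tested genes. Nothing is read from these shares, as the members were chosen on this contrast. Trim30a (ENSMUSG00000030921), which dampens Toll-like receptor signalling, stood at 0.554, 0.395 and 0.420 FPKM in control and 1.54, 1.88 and 1.93 FPKM in KO libraries, a log2 difference of 0.93 ± 0.11 (SE; limma, adjusted p = 0.0163). Its neighbours on chromosome 7 stood close to it in direction but not in size. Trim34a was at 1.41, 1.30 and 1.40 FPKM in control and 2.14, 3.10 and 3.02 FPKM in KO libraries. Trim12c was at 4.29, 3.45 and 3.78 FPKM in control and 5.995, 6.09 and 7.58 FPKM in KO libraries. Trim5 was at 0.208, 0.185 and 0.110 FPKM in control and 0.266, 0.297 and 0.279 FPKM in KO libraries, near the smallest value the table lists. Ratios of means were 3.91 for Trim30a, 2.01 for Trim34a, 1.71 for Trim12c and 1.67 for Trim5. Copies in this cluster are alike in sequence, and the split of reads among them is uncertain; Trim12a, outside the set, had means of 4.81 and 6.73 FPKM in control and KO libraries and did not pass.

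The other Trim genes lie elsewhere. Trim21, a cytosolic antibody receptor also on chromosome 7 but outside that cluster, was at 1.82, 1.49 and 1.59 FPKM in control and 2.23, 3.21 and 3.02 FPKM in KO libraries. Trim14, an adaptor of antiviral signalling on chromosome 4, was at 0.409 ± 0.0782 FPKM in controls and 0.831 ± 0.141 FPKM in the KO group (SD, n = 3 each). It overlaps Nans on the opposite strand, at a control mean of 33.6 FPKM. Trim56, which acts in nucleic acid sensing, was at 3.05 ± 0.167 and 3.51 ± 0.249 FPKM, and Trim26 at 19.4 ± 0.618 and 20.3 ± 0.218 FPKM. Trim26 held 2 overlapping matches of the response-element core about as far upstream as Slfn5 and had a ratio of means of 1.05.

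Proteins of nuclear bodies gave 1 member that passed, 1 that did not and 2 under the filter. Sp100 (ENSMUSG00000026222), a chromatin-binding core component of these bodies, stood at 0.228, 0.362 and 0.471 FPKM in control and 1.99, 2.57 and 2.22 FPKM in KO libraries, a log2 difference of 1.27 ± 0.12 (SE; limma, adjusted p = 0.00476). Sp110, Sp140 and Sp100 lie within 133.1 kb on chromosome 1. Sp110 was at 0.378, 0.329 and 0.514 FPKM in control and 0.893, 1.15 and 1.08 FPKM in KO libraries, and Sp140 at 0.170, 0.302 and 0.308 FPKM and 0.786, 0.689 and 0.397 FPKM. Neither was tested, and both showed no overlap. Pml, the scaffold of the same bodies, stood much higher, at 11.7 ± 0.435 FPKM in controls and 12.7 ± 0.921 FPKM in the KO group (SD, n = 3 each), and did not pass. Its ratio of means was 1.09, against 6.39 for Sp100.

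The Mx genes encode dynamin-like GTPases that trap viral components. Mx2, annotated in GENCODE as a polymorphic pseudogene, stood at 0.343, 0.488 and 0.272 FPKM in control and 1.27, 2.59 and 2.50 FPKM in KO libraries. Its log2 difference was 1.16 ± 0.19 (SE; limma, adjusted p = 0.0844), and it passed without KO replicate 1, the lowest KO library (adjusted p = 0.0103). Mx1 was at 0.193, 0.144 and 0 FPKM in control and 0.533, 1.11 and 0.866 FPKM in KO libraries and was not tested. In both genes KO replicate 1 was the lowest KO library.

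Among the remaining effectors Ifi44 (ENSMUSG00000028037), a GTP-binding-like protein of the interferon response, stood at 0.783, 1.00 and 0.651 FPKM in control and 3.19, 4.27 and 4.84 FPKM in KO libraries, a log2 difference of 1.48 ± 0.15 (SE; limma, adjusted p = 0.00502). Epsti1 was at 0.203, 0.256 and 0.330 FPKM in control and 0.695, 1.04 and 0.911 FPKM in KO libraries and was not tested. Ncoa7, at 3.52 ± 0.0184 and 3.66 ± 0.686 FPKM, and Tor1b, a torsin ATPase of the nuclear envelope, at 14.6 ± 0.960 and 14.02 ± 0.444 FPKM (SD, n = 3 each), overlapped between groups.

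Secreted and cell-surface members gave 0 genes that passed, with 2 tested and 3 under the filter. Cxcl10, a chemokine that draws T cells, was at 0.202, 0.253 and 0.108 FPKM in control and 0.265, 1.24 and 0.633 FPKM in KO libraries. KO replicate 1 lay close to the highest control, and KO replicate 2 far above it. Cd274, the immune checkpoint ligand PD-L1, was at 0.250, 0.245 and 0.173 FPKM in control and 0.323, 0.591 and 0.648 FPKM in KO libraries. Il15, a cytokine of natural killer cells, was at 0.358 ± 0.0622 and 0.396 ± 0.0272 FPKM (SD, n = 3 each), with overlap. Csf1, the growth factor of macrophages, was at 7.24 ± 0.235 and 7.48 ± 0.495 FPKM, and Cd47, which restrains phagocytosis, at 15.4 ± 0.566 and 15.4 ± 1.37 FPKM, also with overlap. The sign of the Cd47 difference turned from -0.0048 to 0.01, 0.01 and 0.03 on the log2 scale with median-of-ratios scaling, quantile normalization and rescaling to TPM.

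The 2 members that process peptides or antigens did not pass either. Lap3, a leucine aminopeptidase, was at 19.7 ± 0.817 FPKM in controls and 20.03 ± 0.833 FPKM in the KO group (SD, n = 3 each). Ifi30, a lysosomal thiol reductase of antigen-presenting cells, was at 20.1, 20.7 and 22.4 FPKM in control and 18.4, 25.8 and 20.1 FPKM in KO libraries. Only KO replicate 2 lay above the controls for Ifi30, and without that library its log2 fold change turned from 0.01 to -0.12. GENCODE lists the Ifi30 ID as a processed transcript, so its level is uncertain.

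**Figure D3:**
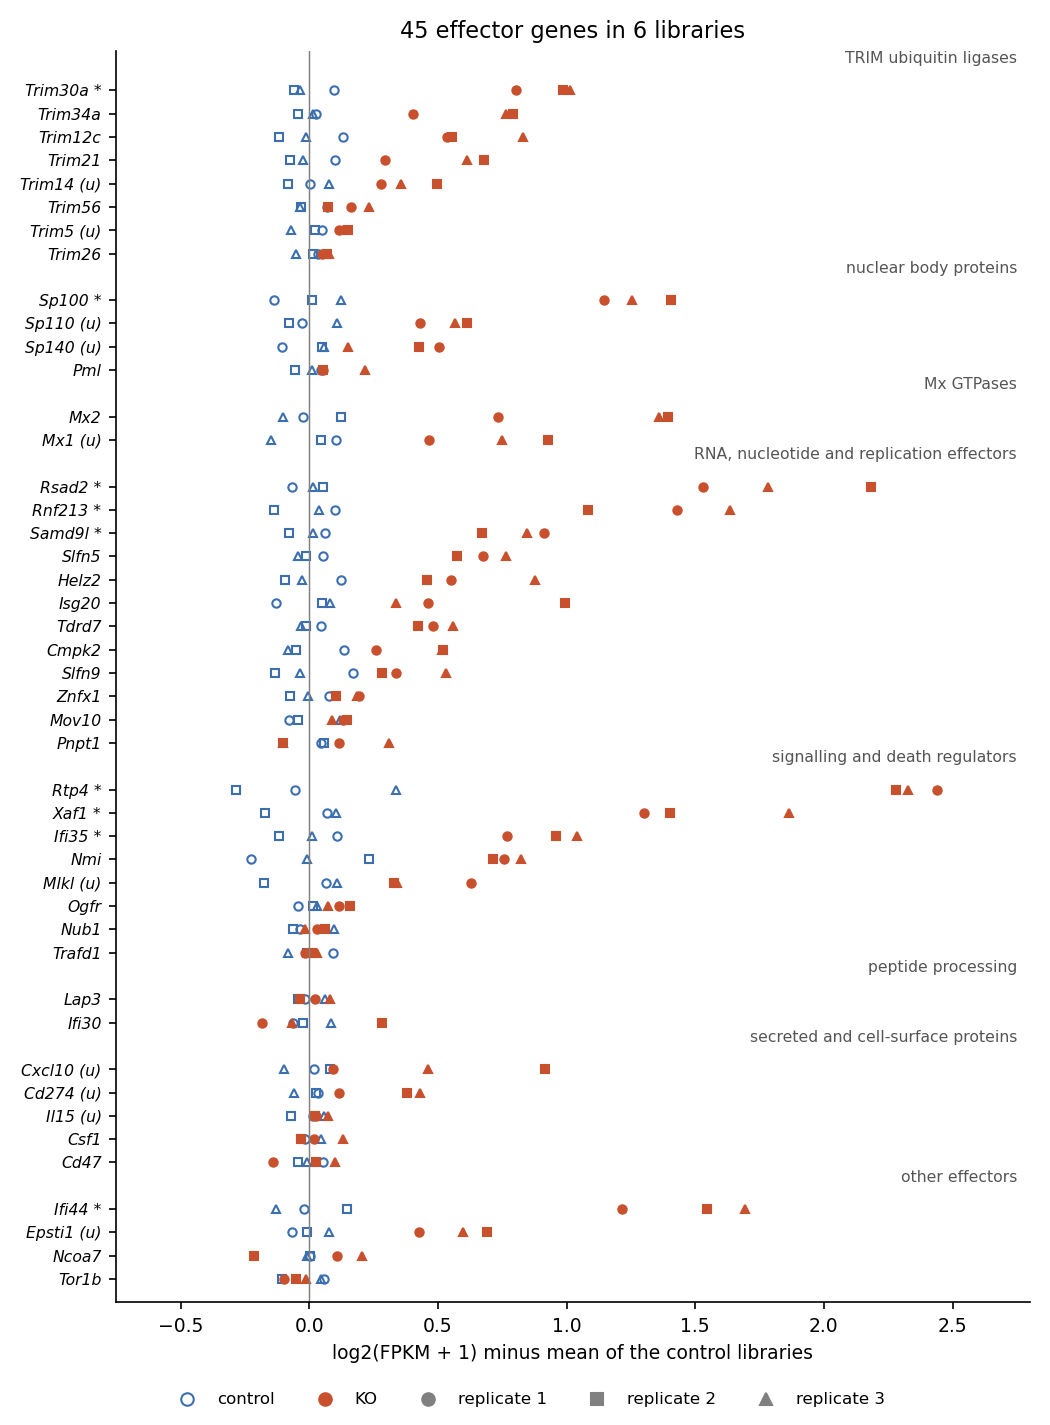
Each of the 45 effector genes in 3 control (open) and 3 KO (filled) libraries, as log2(FPKM + 1) minus the mean of the control libraries, grouped by role; * marks the 9 genes that passed and (u) the 10 under the filter. For 34 genes all KO libraries lie above all control libraries, and for the other 11 the groups overlap.

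The ratio between groups differed with the level in controls, which ran from 0.168 FPKM for Trim5, the lowest mean among members never listed at 0, to 43.4 FPKM for Ogfr. Of the 10 members with a control mean of at least 10 FPKM, 0 passed, and their ratios of means ran from 0.960 to 1.09. Of the 14 members between 1 and 5 FPKM, 3 passed, with a median ratio of 1.80. Of the 18 members under 1 FPKM, 8 were tested and 6 passed, with a median ratio of 3.57 over the 18. The 8 tested members under 1 FPKM in controls entered the test only through their KO level. The 6 that passed among them are therefore not comparable with the counts at higher control levels. The control mean enters both quantities, and the members were chosen with these values known, so this is a description with no test. Over all tested genes, 3 of the 48 that passed as higher had a control mean of at least 10 FPKM. The share of all tested genes at that level is not given here, so nothing is read from this count.

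**Figure D4:**
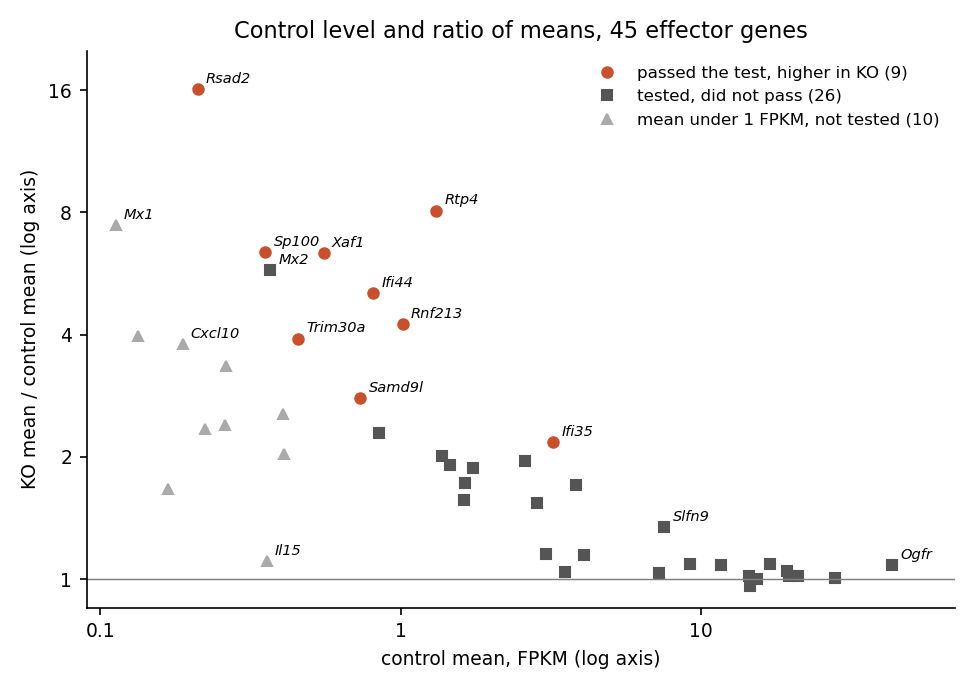
Ratio of the KO mean to the control mean against the control mean in FPKM (both log axes) for the 45 effector genes; the line marks a ratio of 1. Genes above 10 FPKM in controls lie between 0.960 and 1.09, and Rsad2, at 0.211 FPKM in controls, lies highest at 16.1; Mx1 and Mlkl each have 1 control library listed at 0.

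The 3 KO libraries did not carry the effector genes to the same extent. KO replicate 1 was the lowest KO library for 24 of the 45 genes and the highest for 5, whereas KO replicate 3 was the highest for 23 and the lowest for 5. The controls were uneven too: control replicates 1 to 3 were the highest control library for 23, 6 and 16 of the 45 genes. An uneven order is therefore not particular to the KO libraries. The median of log2(FPKM + 1) above the control mean over the 9 genes that passed was 1.21, 1.40 and 1.64 in KO replicates 1 to 3, and over the 36 others 0.18, 0.31 and 0.32. Single genes did not share 1 order: of the 9 that passed, Rtp4 and Samd9l were highest in replicate 1, Rsad2 and Sp100 in replicate 2 and the other 5 in replicate 3. Outside these 9, Sp140, Znfx1 and Mlkl were highest in replicate 1.

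The upstream pathway was read from lists of ligands, receptors and sensors. Of 21 interferon genes 20 were listed at 0 in all libraries, Ifnb1 and Ifng among them, and Ifnz stood at 0.172, 0.137 and 0 FPKM in control and at 0 in the KO libraries. Of 21 receptors, kinases and transcription factors, all tested, 3 rose, Irf7 and Irf9 among them, and 18 did not pass, with a median log2 fold change of 0.07. Irf7, a factor that drives interferon genes, went from 0.476 ± 0.276 to 6.14 ± 1.81 FPKM (SD, n = 3 each) and Irf9 from 7.86 ± 0.967 to 16.1 ± 1.79 FPKM. Irf7 entered the test only through its KO level. Irf9 did not pass when control replicate 2, control replicate 3 or KO replicate 3 was left out (limma, adjusted p = 0.0706, 0.103 and 0.0601). Stat2, a partner of Irf9, was at 6.21 ± 0.257 and 8.38 ± 1.40 FPKM and did not pass. The receptor genes Ifnar1, at 25.8 ± 0.843 and 25.96 ± 2.95 FPKM, and Ifngr1, at 13 ± 0.267 and 13.2 ± 0.996 FPKM, did not pass. Of 11 tested nucleic acid sensors and adaptors 2 rose, Ddx58, or RIG-I, and its partner ligase Trim25, and 9 did not pass. Trim25 stood at 5.03, 4.38 and 4.20 FPKM in control and 11.1, 11.6 and 12.6 FPKM in KO libraries, a larger difference than in any of the 8 Trim members except Trim30a by ratio.

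Interferon-stimulated genes of the other families and leukocyte markers were counted in the same fit. Of 42 tested genes of the Isg15, Oas, Ifit, GTPase, class I, PARP and related families, 26 rose and 16 did not pass, with a median log2 fold change of 1.17, beside 9 of 35 and 0.49 for the effector genes. Family genes with a control mean under 1 FPKM also entered the test only through their KO level. Nothing is therefore read from these counts and medians side by side. The per-library medians of the 42 tested family genes were 0.99, 1.28 and 1.26 in KO replicates 1 to 3, so KO replicate 1 was lowest there too. Promoter windows held the response-element core in 22 of 41 of the family genes, beside 13 of 39 effector genes and 1 of 24 leukocyte markers. The gamma-activated site was present in 12 of those 41 family genes (29.3%), beside 2 of 39 effector genes and 2 of 24 leukocyte markers. Leukocyte markers moved in the same direction as the effector genes: 20 of 21 tested markers had a log2 fold change above 0, 0 passed, and their median was 0.36. The summed FPKM of all 32 listed markers ran from 110.5 to 139 in control and from 148.5 to 204 in KO libraries. Among defining markers, Adgre1 of macrophages was at 1.83, 1.38 and 2.09 FPKM in control and 3.62, 3.74 and 2.98 FPKM in KO libraries, whereas Cd3e of T cells and Ncr1 of natural killer cells were listed at 0 in all 6. Csf1r, also of macrophages, was at 6.23, 6.30 and 7.47 FPKM in control and 7.99, 8.47 and 6.55 FPKM in KO libraries. It overlapped between groups, while the listed markers Ptprc and C1qa did not. Pf4 went the other way, from a mean of 5.84 FPKM in control to 5.18 FPKM in KO libraries, with overlap. Of the 21 tested markers 12 had all KO libraries above all control libraries, beside 3.27% of all tested genes. The leukocyte median was 0.33, 0.58 and 0.21 in KO replicates 1 to 3, lowest in replicate 3, where the effector genes that passed were highest. The part of leukocytes in the effector values was not tested.

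**Figure D5:**
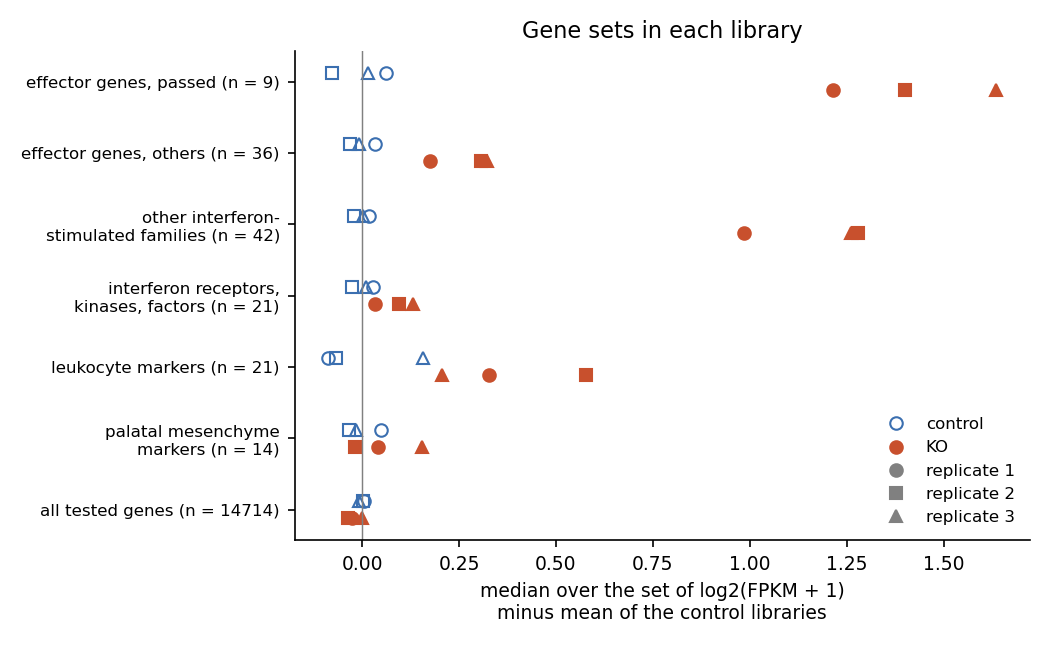
Median over each gene set of log2(FPKM + 1) minus the mean of the control libraries, for each of 3 control (open) and 3 KO (filled) libraries. The 9 effector genes that passed run from 1.21 to 1.64 in KO and leukocyte markers from 0.21 to 0.58, while palatal mesenchyme markers run from -0.02 to 0.15 in KO.

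The calls differed in how far they rested on single libraries. Rtp4, Rsad2, Sp100 and Ifi44 passed with each of the 6 libraries left out in turn, with a highest adjusted p in limma of 0.0084, 0.0331, 0.0352 and 0.0426. The other 5 genes each lost the call at least once, and the count of 9 fell to 4 without control replicate 2 and to 4 without control replicate 3. Xaf1 did not pass without those libraries (adjusted p = 0.0590 and 0.0524), nor did Ifi35 (adjusted p = 0.0706 and 0.0854, and 0.0543 without KO replicate 3). Rnf213 did not pass without them either (adjusted p = 0.0631 and 0.0697, and 0.0569 without KO replicate 1). Samd9l passed in 1 of the 6 fits, without KO replicate 2, with a highest adjusted p of 0.224. Trim30a did not pass when any 1 of the 3 controls was left out, in replicate order (adjusted p = 0.0565, 0.122 and 0.115) and fell under the filter without KO replicate 2 or 3. The size of the difference moved less: over these fits the log2 fold change ran from 2.21 to 2.52 for Rtp4, from 0.76 to 0.88 for Samd9l and from 0.90 to 1.00 for Trim30a.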

How the data were processed

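RNA came from dissected palatal shelves (ReliaPrep extraction, per the labels' protocols). One deposited table gives FPKM, which the authors scaled for gene length and library size, for 55631 Ensembl IDs in 6 libraries, and its name is the source of the unit. The submitters' processing notes name the build mm10 and DESeq2 version 1.5.2. For the aligner, counter, annotation release and strandedness, nothing is given in the sources used here.

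Libraries were assigned to groups by title and columns by library name, and all columns were used. Symbols and positions came from GENCODE M21 (GRCm38) by ID, which matched 50824 IDs and left 4807 unnamed. The test was limma (version 3.58.1, R version 4.3.3) on log2(FPKM + 1) for genes whose mean reached 1 FPKM (lmFit, eBayes with trend, genotype as the only term, two-sided, Benjamini-Hochberg adjustment over all tested genes, threshold 0.05). This scale understates the change of low genes. The procedure was tested on simulated data with independent normal noise, for genes already past the filter. That simulation does not cover genes under the filter or entry to the test only through the KO level. The members, lists and motifs were chosen with earlier results of these data known. All members are named. Of other lists, up to 6 genes with the smallest p could be named. Further ones (Ifnb1, Ifng, Ifnz, Ifnar1, Ifngr1, Csf1r, Ptprc, Pf4, Cd3e, Ncr1, Msx1, Osr2, Slfn2, Slfn3, Slfn8, Trim12a) were picked after their values were seen. Some genes of these lists are not reported here. Promoter sequences are RefSeq windows on GRCm38.p6, printed for called members by a rule and, for Trim34a, Trim5, Trim12c, Cxcl10 and Ogfr, chosen afterwards.

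Alternatives changed the scaling (median-of-ratios, TPM, quantile normalization), the filter (none, 0.1 or 5 FPKM), the pseudocount (0.1) or the model (library weights, embryo sex, a block for replicate number), or left out 1 library at a time.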

Additional observations from a re-analysis of the deposited data

How the results depend on the processing

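The values are FPKM without counts, so precision rests on 3 libraries a group, and low members lie near the smallest listed value. The effector genes that passed numbered 9, and 6 with the replicate number as a block, where Ifi35, Samd9l and Trim30a were lost (limma, adjusted p = 0.0665, 0.116 and 0.119); over all genes 41 in place of 48 passed as higher. Whether the numbers pair the libraries is not known. Of the 6 libraries 2 correlated best with their own number, and with 3 libraries a group this count cannot decide it. With a filter at 5 FPKM 2 effector genes, 24 of all genes and 14 of the other families passed as higher, 0 genes were lower, and the effector median was 0.087; fewer genes were tested there. That median was 0.62 with a pseudocount of 0.1 and 0.68 after rescaling to TPM, and ran from 0.39 to 0.52 with a library left out, where 4 to 8 effector genes passed and 1 to 2 genes were lower. Lower genes numbered 2 with a filter at 0.1 FPKM, no filter or sex as a covariate. Sensors that rose numbered 4 with those filters, library weights or TPM. Slfn5 also passed with library weights and a filter at 0.1 FPKM, Trim12c and Tdrd7 with library weights and Mx2 with TPM; Trim30a was lost with sex as a covariate. No member that passed changed sign under the alternatives in which it was tested, which were 16 for Rtp4 and Ifi35, 13 for Trim30a and 15 for the others. All KO values of these members lay above all their control values, so leaving out a library could not turn the sign. Nothing is therefore read from the unchanged signs. Signs turned for 7 members near 0: Ifi30 to -0.10 with library weights and -0.12 with sex as a covariate, and Cd47 to 0.011, 0.011 and 0.026 with median-of-ratios scaling, quantile normalization and TPM. With a library left out the ranges were -0.12 to 0.11 for Ifi30, -0.057 to 0.062 for Cd47, -0.034 to 0.054 for Trafd1, -0.0063 to 0.073 for Nub1, -0.0065 to 0.054 for Lap3, -0.0058 to 0.076 for Csf1 and -0.053 to 0.16 for Ncoa7.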
